A study of Mus musculus with 4 samples.

Results

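The secreted Wnt antagonists are extracellular proteins, most of which are known to keep Wnt ligands from signaling. Here 10 mouse genes that encode them were followed: Dkk1, Dkk2, Dkk3, Dkk4, Sfrp1, Sfrp2, Sfrp4, Sfrp5, Frzb and Wif1. They were taken by name, as members of the Dickkopf and secreted Frizzled-related families together with Wif1, from 21951 protein-coding genes in the annotation. The measurement was H3K27me3, the repressive trimethylation that Ezh2 places on lysine 27 of histone H3, by CUT&RUN, in which an antibody directs a nuclease to its target and the released DNA is sequenced. The cells were erythro-myeloid progenitors (EMPs), which arise from hemogenic endothelium, taken from the yolk sac (YS) of C57BL/6 embryos at E10.5. All libraries carried the same genotype label, which sets the words "Wild type" beside Ezh2fl/fl and Tie2-Cre+/+, a Cre driven in endothelial cells and the blood cells they form. The paper describes the EMPs used for H3K27me3 as wild type. One H3K27me3 library was made from 500 EMPs and 1 from 15000 EMPs, each with an IgG library as the caller's background, which gives 4 libraries in all and no replicates.

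Canonical Wnt signaling starts when a Wnt ligand brings together a Frizzled receptor and the co-receptor Lrp5 or Lrp6, which stabilises β-catenin and activates TCF/LEF target genes. The Dickkopf proteins Dkk1, Dkk2 and Dkk4 act on the co-receptor, and the role of Dkk3 is unsettled. The secreted Frizzled-related proteins, which include Frzb, and Wif1 bind the ligands themselves. Most of these antagonists are known as signals of embryonic mesenchyme and epithelia, where their own genes are under tight developmental control.

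H3K27me3 peaks lay at 9 of the 10 genes with 15000 EMPs and at 6 of the 10 with 500 EMPs. Dkk1, Dkk3, Sfrp1, Sfrp2, Sfrp5 and Frzb had a peak in both libraries, Dkk2, Sfrp4 and Wif1 had one in the 15000-EMP library alone, and Dkk4 had none in either. A peak was counted where the distance column of the authors' annotated tables gave at most 3 kb. That distance can run to the end of a gene instead of its start, but all the marked antagonists had covered bases within 3 kb of the start as well. By that rule 16.7% of all protein-coding genes had a peak with 15000 EMPs and 9.74% with 500 EMPs. The 500-EMP count of antagonist genes depended on the settings. It was 4 with a limit of 1 kb and 3 when peaks had to be at least 500 bp wide. With each library unreplicated, no test between them was possible, and the values below describe 2 libraries.

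The libraries differed in more than cell number. Per the labels, DNA from 500 EMPs was amplified with 17 PCR cycles and read as 76 bp paired ends, and DNA from 15000 EMPs with 16 cycles and 59 bp on another instrument. The methods give a p-value threshold of 0.01 for the 500-EMP list and 0.05 for the 15000-EMP list, although in the listed commands the library names are swapped between these thresholds. The submitters' reporting form also states that the 500-EMP library was sequenced less deeply and that a far smaller share of its reads aligned. The lists held 10223 and 15282 peaks without heights, scores or read counts, so a peak could only be present or absent and this difference could not be corrected for. Cell number, depth, read length, amplification and threshold therefore cannot be told apart in any comparison below. As a check of the label, read against the shares of 9.74% and 16.7% above, 0 of 9 genes of the EMP gate and of blood, Kit, Itga2b, Runx1 and Gata1 among them, had a peak within 3 kb in either list. Fcgr3, another of the 9, had a peak just beyond that limit in both, at 4121 bp with 500 EMPs and 4057 bp with 15000 EMPs. Of 5 endothelial genes, Sox17 had one in both lists and Kdr in the 15000-EMP list, whereas Cdh5, Pecam1 and Tek had none. All 4 mesenchymal genes (Pdgfra, Col1a1, Twist1 and Prrx1) were marked in both lists, and of 4 endoderm genes Foxa2 was, while Afp, Ttr and Hnf4a had no peak. With so few genes 0 of 9 lies near those shares and checks little. The mark does not measure expression, and these peaks do not say which cells gave them.

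The sequences at the gene starts come first, because the libraries differed in whether peaks lay over them. RefSeq promoter sequences of GRCm38.p6, which is the mm10 build of the peak lists, were matched for 6 of the 10 genes, namely Dkk1, Dkk2, Sfrp2, Sfrp5, Frzb and Wif1. Each is 300 bases long and is printed 5′ to 3′ on the strand of its gene, with every CpG dinucleotide in capitals. Dkk1 is shown as the promoter with bases under a 500-EMP peak, Dkk2 as one that only a 15000-EMP peak covered, and Sfrp2 and Wif1 as those outside the peaks of both lists. The printed Sfrp2 promoter lies at the GENCODE start, and another RefSeq start of this gene is described with its peaks.
Dkk1 promoter, chr19:30549447-30549746, minus strand: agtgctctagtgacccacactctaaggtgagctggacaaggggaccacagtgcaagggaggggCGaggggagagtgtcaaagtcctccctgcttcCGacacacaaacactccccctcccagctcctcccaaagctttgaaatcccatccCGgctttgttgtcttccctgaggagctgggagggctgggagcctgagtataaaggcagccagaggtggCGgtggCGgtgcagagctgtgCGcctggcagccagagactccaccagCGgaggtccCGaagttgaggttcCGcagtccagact
Dkk2 promoter, chr3:132085042-132085341, plus strand: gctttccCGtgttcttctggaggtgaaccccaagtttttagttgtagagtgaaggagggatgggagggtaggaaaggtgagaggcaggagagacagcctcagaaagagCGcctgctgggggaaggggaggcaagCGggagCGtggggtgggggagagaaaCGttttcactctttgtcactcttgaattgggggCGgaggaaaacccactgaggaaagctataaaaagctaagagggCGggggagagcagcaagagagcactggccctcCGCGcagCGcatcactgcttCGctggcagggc
Sfrp2 promoter, chr3:83766071-83766370, plus strand: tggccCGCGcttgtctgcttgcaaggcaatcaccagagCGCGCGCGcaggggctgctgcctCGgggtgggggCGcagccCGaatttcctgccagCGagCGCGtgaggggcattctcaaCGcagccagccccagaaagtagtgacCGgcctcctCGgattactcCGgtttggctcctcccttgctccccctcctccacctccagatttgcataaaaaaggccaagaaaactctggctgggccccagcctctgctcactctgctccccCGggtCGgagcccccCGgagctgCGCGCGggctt
Wif1 promoter, chr10:121033754-121034053, plus strand: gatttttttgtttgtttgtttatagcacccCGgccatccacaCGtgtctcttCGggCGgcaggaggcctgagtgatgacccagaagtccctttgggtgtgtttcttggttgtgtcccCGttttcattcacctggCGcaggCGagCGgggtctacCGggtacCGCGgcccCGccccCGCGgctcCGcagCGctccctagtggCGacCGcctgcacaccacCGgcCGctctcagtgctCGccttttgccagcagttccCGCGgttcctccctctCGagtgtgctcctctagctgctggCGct

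Of these 300 bases, the 15000-EMP peaks covered all 300 at Dkk1, Dkk2, Sfrp5 and Frzb, and 0 at Sfrp2 and Wif1. With 500 EMPs, 207 bases of the Dkk1 promoter were covered and 0 of the other 5. The covered promoters held 9 CpG at Dkk1, 11 at Dkk2, 15 at Sfrp5 and 20 at Frzb. The uncovered ones held 22 CpG at Sfrp2 and 25 at Wif1, and the median over the RefSeq promoters of all genes was 7. These 6 promoters do not show an order that held for all 10 genes, since within 1 kb of the start the covered Sfrp1 was the richest in CpG and the bare Sfrp4 was among the poorer. One exact form of the core of the TCF/LEF binding motif, CTTTGAT, was searched on both strands. It was found in 0 of the 6 promoters, and 3.73% of 32851 RefSeq promoters hold it. With 6 promoters, 0 lies near that share and says little, and other forms of the motif were not searched.

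A contrasting sequence lies under one of the narrowest peaks. The 500-EMP list had 2 peaks of its smallest width, 137 bp, at these genes, 1 at Sfrp1 and 1 within the first intron of Sfrp2. The Sfrp2 peak, printed on the plus strand, holds 0 CpG and lies inside a wider 15000-EMP peak.
Sfrp2 500-EMP peak, chr3:83768280-83768416, plus strand: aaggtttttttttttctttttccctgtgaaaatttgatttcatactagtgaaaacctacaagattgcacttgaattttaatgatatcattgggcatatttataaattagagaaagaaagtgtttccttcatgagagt

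Peaks were next collected in each gene body and 10 kb on either side. There were 13 such peaks with 500 EMPs, 137 to 1146 bp wide with a median of 393 bp, and 17 with 15000 EMPs, 242 to 5920 bp wide with a median of 2459 bp. The median width over the whole lists was 363 bp and 770 bp. All 13 of the 500-EMP peaks lay entirely inside 15000-EMP peaks, as did 79.2% of the whole 500-EMP list. Conversely, 7 of the 17 wider peaks from 15000 EMPs held at least 1 of them, and 18.9% of their 33809 bp was covered in both. Over the whole 15000-EMP list these shares were 32.2% of peaks and 23.1% of bases. By this wider window the count of genes was again 6 of 10 against 15.0% of all protein-coding genes with 500 EMPs, and 9 of 10 against 25.0% with 15000 EMPs. The authors' tables assigned each of these peaks to the antagonist gene itself. No peak of either list overlapped another annotated gene within 10 kb, that is Ppp1r2-ps3 near Dkk1, Gm22421 near Dkk2, Usp47 near Dkk3, Polb near Dkk4, the antisense gene Gm26771 at Sfrp2, Epdr1 near Sfrp4 and Zfyve27 near Sfrp5.

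**Figure D1:**
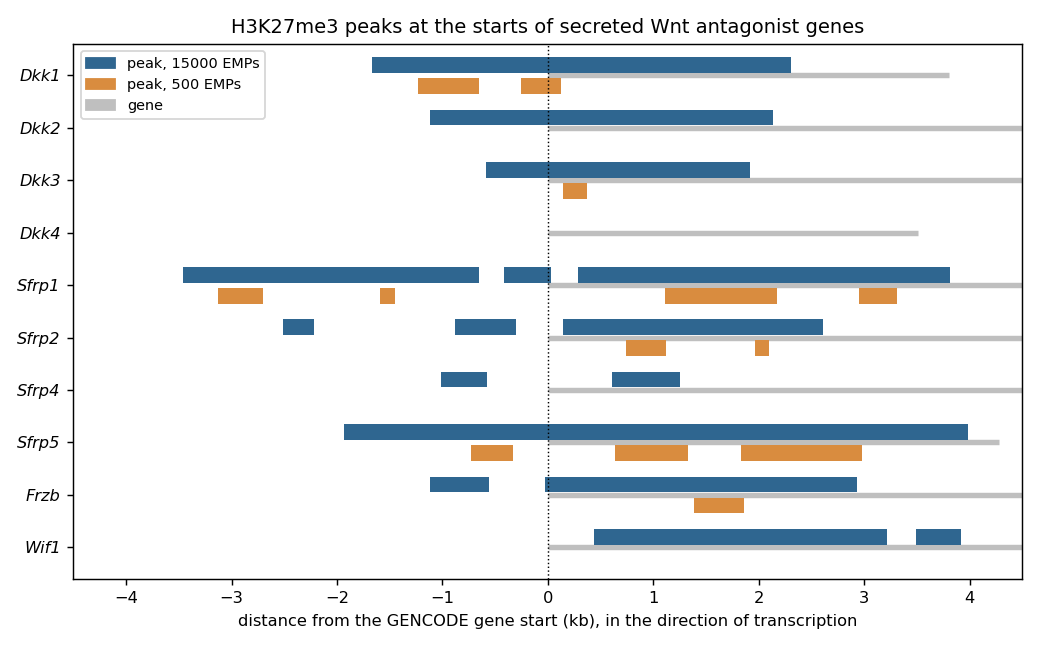
H3K27me3 peaks of the 15000-EMP list (blue) and the 500-EMP list (orange) at the 10 genes, plotted by distance in kb from the GENCODE gene start in the direction of transcription, with the gene in grey. Each orange peak lies within a blue one, Dkk4 has no peak, and the blue peaks of Sfrp2, Sfrp4 and Wif1 leave the start itself bare.

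Among the Dickkopf genes, Dkk1 and Dkk3 were marked in both libraries. Dkk1, whose product blocks Lrp5 and Lrp6, is a gene of 4 exons at chr19:30545863-30549665 on the minus strand. With 15000 EMPs a single peak of 3970 bp ran from -1668 to 2301 bp relative to the gene start and touched all 4 exons. With 500 EMPs it appeared as 2 peaks, 1 of 583 bp upstream, from -1236 to -654 bp, and 1 of 385 bp from -259 to 125 bp. The second of these covered the start and 126 noncoding bases of the first exon, which no 500-EMP peak did at any other member. The RefSeq start of Dkk1 lies further into the gene and was not under a 500-EMP peak, so this call rests on the annotation used.

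Dkk2, a Dickkopf protein that also binds Lrp6, spans chr3:132085292-132180304 on the plus strand and had a 15000-EMP peak of 3250 bp, from -1117 to 2132 bp, over the start and the first exon. No 500-EMP peak was found within 10 kb, and the nearest lay 595.6 kb away. Of all genes without a 500-EMP peak within 10 kb, 27.2% were at least as far from one. Dkk3, the divergent member of the family with an unsettled role in Wnt signaling, lies at chr7:112116017-112159057 on the minus strand. Its 15000-EMP peak was 2504 bp wide, from -584 to 1919 bp, and touched its first 2 exons, whereas the 500-EMP peak was 229 bp wide and intronic, from 140 to 368 bp. Dkk4, another Lrp5 and Lrp6 antagonist, occupies chr8:22624043-22627547 on the plus strand, 578 bp from the DNA polymerase gene Polb. The nearest peak to Dkk4 was 345.8 kb away with 500 EMPs and 79.5 kb away with 15000 EMPs, so it was the one Dickkopf gene without a peak in the 15000-EMP list, while in the 500-EMP list it shared this with Dkk2. Among genes without a 15000-EMP peak within 10 kb, 66.2% were at least as far from one as Dkk4. With 500 EMPs the same share was 40.5%.

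Of the secreted Frizzled-related genes, Sfrp5 and Sfrp1 carried the longest covered stretches. Their products bind Wnt ligands through a cysteine-rich domain like that of the Frizzled receptors. Sfrp5 is a short gene at chr19:42197971-42202252 on the minus strand. A single 15000-EMP peak of 5920 bp, from -1934 to 3985 bp, covered its start and touched all 3 exons. With 500 EMPs this stretch held 3 peaks, of 393 bp from -728 to -336 bp, of 692 bp from 633 to 1324 bp and of 1146 bp from 1833 to 2978 bp. The last of these, which included 78 bases of the second exon, was the widest 500-EMP peak at any of the 10 genes. None of the 3 reached the gene start.

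At Sfrp1, chr8:23411502-23449632 on the plus strand, 4 peaks were found within 10 kb in each list. With 15000 EMPs they were 242 bp wide from -9552 to -9311 bp, 2808 bp wide from -3462 to -655 bp, 447 bp wide from -414 to 32 bp and 3529 bp wide from 283 to 3811 bp. The gaps around the small peak at the start measured only 240 and 250 bp. With 500 EMPs the 4 peaks were 424 bp and 137 bp wide upstream and 1062 bp and 360 bp wide in the first intron, and the start was bare. A further 4 peaks that the authors' 15000-EMP table gives to Sfrp1 lay upstream, between -24435 and -11928 bp, and no 500-EMP row of this kind was present for any member.

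Sfrp2, chr3:83766321-83774316 on the plus strand, had 3 peaks with 15000 EMPs, of 297 bp, of 575 bp from -882 to -308 bp and of 2459 bp from 147 to 2605 bp. The 454 bp between the last pair held the start and the promoter printed above. The RefSeq gene table puts the start of Sfrp2 further upstream than the RefSeq promoter table, at a position inside the 575 bp peak, so that the bare start holds for the promoter and GENCODE starts alone. With 500 EMPs only the 2 intronic peaks remained, of 378 bp from 743 to 1120 bp and of 137 bp from 1959 to 2095 bp. Sfrp4, chr13:19623104-19632994 on the plus strand, was the least covered of the 9 marked genes. Its 2 peaks with 15000 EMPs, of 434 bp from -1010 to -577 bp and of 653 bp from 603 to 1255 bp, left 1179 bp around the start uncovered. The upstream peak was assigned by the authors' table to Epdr1 as well, the gene on its other side. The nearest 500-EMP peak lay 1650 kb from Sfrp4, and 7.92% of the genes without a 500-EMP peak within 10 kb were at least as far from one.

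Frzb, also called Sfrp3 and first known from cartilage, lies at chr2:80411970-80447625 on the minus strand. A 15000-EMP peak of 2957 bp, from -25 to 2931 bp, covered its start and first exon, and another of 559 bp lay from -1119 to -561 bp. With 500 EMPs only 468 bp of the first intron was called, from 1389 to 1856 bp. Wif1, which binds Wnt ligands through its own WIF domain, spans chr10:121033960-121100650 on the plus strand and had 15000-EMP peaks of 2780 bp, from 439 to 3218 bp, and of 425 bp, from 3495 to 3919 bp. Both lay wholly downstream of the start. The nearest 500-EMP peak was 1340 kb away from Wif1, and 11.2% of the genes without a 500-EMP peak within 10 kb were at least as far from one.

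The length covered by peaks within 3 kb of each start, a window of 6001 bp, gave a graded measure. With 15000 EMPs it was 5511 bp at Sfrp1, 4935 bp at Sfrp5, 3970 bp at Dkk1, 3516 bp at Frzb, 3331 bp at Sfrp2, 3250 bp at Dkk2, 2562 bp at Wif1, 2504 bp at Dkk3, 1087 bp at Sfrp4 and 0 bp at Dkk4. With 500 EMPs Sfrp5 was first with 2231 bp, followed by Sfrp1 with 1550 bp, Dkk1 with 968 bp, Sfrp2 with 515 bp, Frzb with 468 bp and Dkk3 with 229 bp. Sfrp1, Sfrp5 and Dkk1 were thus the 3 most covered genes in both lists, and the order of neighbours has no error to be read against. The median over the 10 genes was 3290.5 bp with 15000 EMPs and 348.5 bp with 500 EMPs, while the median over all protein-coding genes was 0 bp in both. The 10-gene medians depended on the window, and with 1 kb on each side they were 1488.5 bp and 0 bp. Among genes with a peak the medians lay closer, 3331 bp for the 9 antagonists against 2724 bp for all 3673 such genes with 15000 EMPs, and 741.5 bp for the 6 antagonists against 777.5 bp for all 2138 such genes with 500 EMPs. At least as much was covered at 1.46% of all protein-coding genes as at Sfrp1 with 15000 EMPs, and at 1.59% as at Sfrp5 with 500 EMPs.

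**Figure D2:**
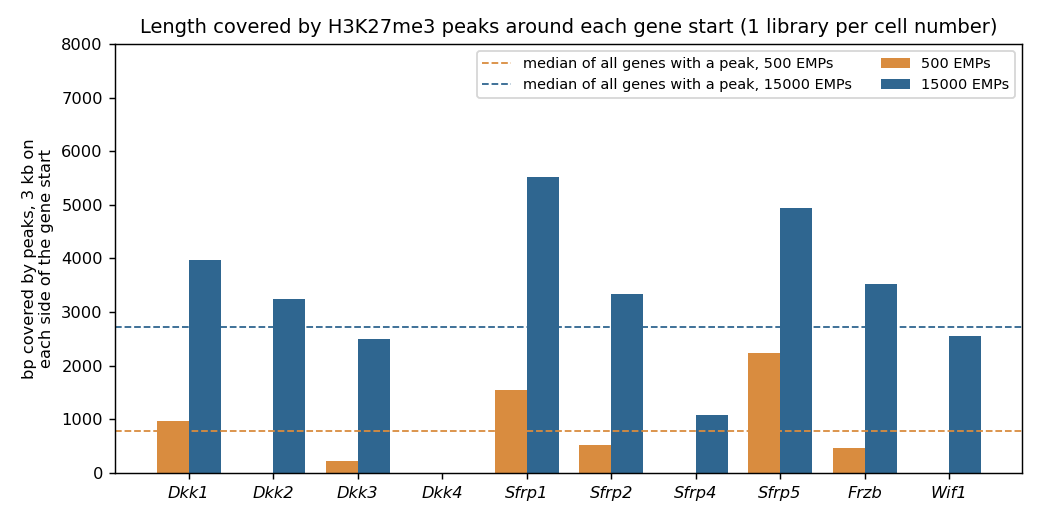
Length in bp covered by H3K27me3 peaks within 3 kb of each gene start, with 1 bar per gene and library and dashed lines at the medians of all genes with a peak, 777.5 bp with 500 EMPs and 2724 bp with 15000 EMPs. In both libraries Sfrp1, Sfrp5 and Dkk1 exceed the line of that library, and Frzb, Sfrp2 and Dkk2 do so with 15000 EMPs alone. Dkk2, Sfrp4 and Wif1 have a 15000-EMP bar alone.

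The covered length with 15000 EMPs was divided by that with 500 EMPs for the 6 genes marked in both. The ratio was 2.21 at Sfrp5, 3.56 at Sfrp1, 4.10 at Dkk1, 6.47 at Sfrp2, 7.51 at Frzb and 10.9 at Dkk3. Since the window holds 6001 bp, a gene with more bases covered with 500 EMPs could reach only a lower ratio, and nothing is read from this order. The median of these 6 ratios was 5.28, and the median over all protein-coding genes covered in both libraries was 4.26. Summed over the 10 genes the covered length rose from 5961 to 30666 bp, a ratio of 5.14 against 4.17 over all protein-coding genes.

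Dkk2 and Wif1 had wide 15000-EMP peaks without a 500-EMP counterpart. In the class of 15000-EMP peaks 2.5 to 4.0 kb wide, which was chosen after these values were seen, 79.6% of 1523 peaks overlapped a 500-EMP peak. At the antagonists 5 of 7 did, and the other 2 were those of Dkk2 and Wif1. The Sfrp2 peak of 2459 bp, just narrower than this class, overlapped 500-EMP peaks too. Of the peaks under 1 kb, 8.76% of 8748 overlapped a 500-EMP peak, and at the antagonists 0 of 8 did. By gene, 6 of the 9 antagonists with a 15000-EMP peak also had a 500-EMP peak. Of the 3673 protein-coding genes marked by the same rule with 15000 EMPs, 57.3% did. With so few members, all these counts lie near the shares over all peaks and genes.

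A peak covered the start itself at 6 genes with 15000 EMPs (Dkk1, Dkk2, Dkk3, Sfrp1, Sfrp5 and Frzb) and at 1 with 500 EMPs (Dkk1), against 8.62% and 1.4% of all protein-coding genes. Genes with a peak within 3 kb give the closer background, since 50.4% of them had a covered start with 15000 EMPs and 14.1% with 500 EMPs, beside 6 of 9 and 1 of 6 antagonists. All 9 marked antagonists were covered together between 700 and 1200 bp downstream of the start with 15000 EMPs. Over all genes with a peak, coverage also stood highest downstream, with 67.7% covered at 1000 bp. Of the covered bases within 3 kb, 67.5% lay downstream of the start at the antagonists with 15000 EMPs and 72.0% with 500 EMPs, beside 57.9% and 54.5% over all genes with a peak.

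**Figure D3:**
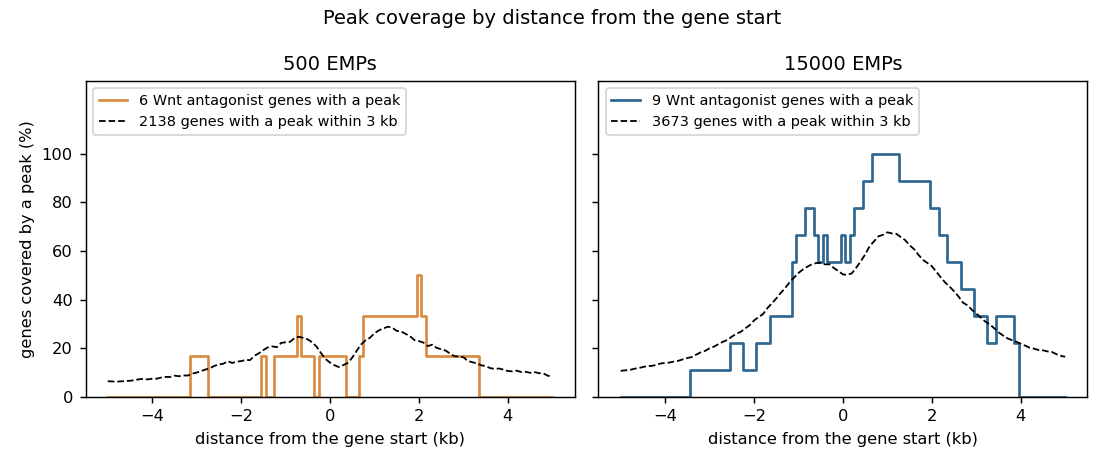
Share of genes covered by a peak at each distance in kb from the gene start, for the antagonists with a peak (solid steps, 6 genes with 500 EMPs and 9 with 15000 EMPs) and all genes with a peak within 3 kb (dashed). With 15000 EMPs the 9 antagonists are all covered from 700 to 1200 bp downstream, and in both panels the dashed line dips near the start, where it stands at 14.1% and 50.4%.

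The position of the peaks within the genes was read from the principal transcript of each gene. With 500 EMPs, of 6394 bp at the antagonists, 66.7% was intronic, 28.1% lay outside the transcripts and 5.19% was exonic, and 10 of the 13 peaks touched no exon. Over all pairs of a protein-coding gene and a 500-EMP peak in it or within 10 kb, 33.3% of the bases were intronic, 60.0% outside and 6.66% exonic, and 85.6% of the pairs touched no exon. With 15000 EMPs 48.8% of the 33809 bp was intronic, 31.5% lay outside and 19.6% was exonic, beside 35.2%, 56.6% and 8.24% over all such pairs. Here 10 of the 17 peaks touched the first exon of their gene, beside 15.9% of all pairs, and with 500 EMPs 2 of the 13 did, beside 5.81%. Among the 10, Sfrp1 entered with both its 447 bp and its 3529 bp peak. The pairs include genes whose peaks all lie far from the start, whereas every marked antagonist had a peak within 3 kb. These shares over all pairs are therefore not a like background.

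CpG density, which is high at many Polycomb-bound promoters, varied among the gene starts. Within 1 kb of the start Sfrp1 had 7.50 CpG per 100 bp and Sfrp2 6.00, while Sfrp5 had 5.30, Frzb 4.45 and Wif1 4.35. The others were lower, at 3.85 for Dkk2, 3.45 for Dkk3, 3.15 for Sfrp4, 3.10 for Dkk1 and 1.45 for Dkk4. Dkk4, the gene without a peak, was thus the poorest in CpG, and 69.4% of all protein-coding genes were at least as rich. The median was 4.87 over the 6 antagonists marked in both libraries and 3.85 over the 3 marked with 15000 EMPs alone, close to 4.70 and 3.85 over all genes of these classes. Genes with a peak in neither library had a median of 2.65.

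Inside the windows, CpG density in and outside the peaks was then compared for each library. With 15000 EMPs, bases in peaks held 2.85 CpG per 100 bp and bases outside 2.06, and peaks were the denser at 6 of 9 antagonists. The exceptions were Sfrp1, Sfrp2 and Wif1. At Sfrp1 the 490 bp left uncovered held 49 CpG, whereas the 5511 bp inside peaks held 158, or 2.87 per 100 bp, at Sfrp2 the values were 3.82 and 3.27, and at Wif1 they were 2.85 and 1.13. With 500 EMPs, bases in peaks held 1.78 CpG per 100 bp and bases outside 2.89, and peaks were the denser at 1 of 6 antagonists, Dkk3. All protein-coding genes with covered bases showed the same ordering, at 2.95 inside and 2.41 outside with 15000 EMPs, and 2.49 inside and 2.97 outside with 500 EMPs. The density was higher inside peaks at 55.5% of these genes with 15000 EMPs and at 30.3% with 500 EMPs. PCR amplification differed between the libraries, with 17 and 16 cycles, and its part in these values was not tested.

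**Figure D4:**
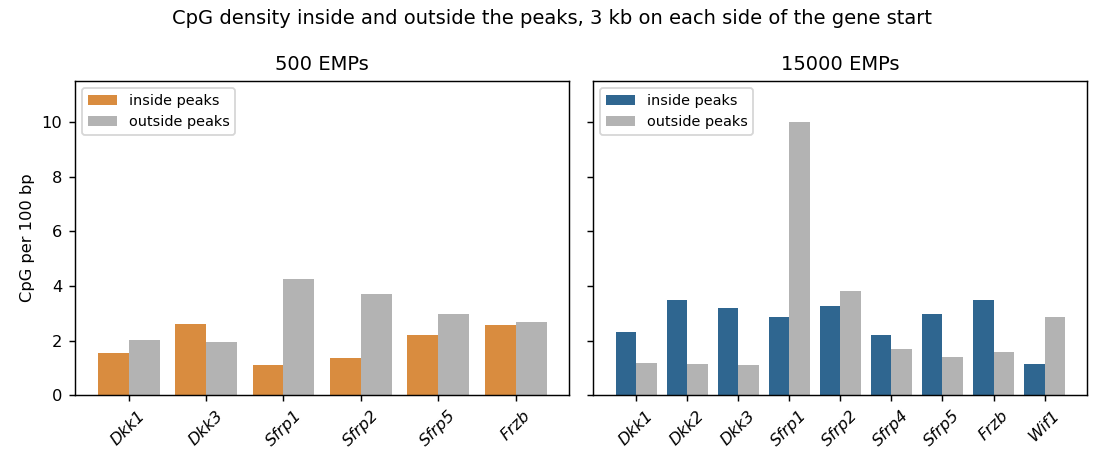
CpG dinucleotides per 100 bp inside peaks (coloured) and outside them (grey) in the window of 3 kb on each side of the start, for each antagonist with a peak in the 500-EMP library (left) and the 15000-EMP library (right). The uncovered bases of Sfrp1 with 15000 EMPs, 49 CpG in 490 bp, give the highest bar, and with 500 EMPs the peaks of Dkk3 alone are denser than their surroundings.

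The other genes of the pathway were compared by the same rule of 3 kb. Of the receptors on which the Dickkopf proteins act, Kremen2 was marked in both libraries, with 1279 bp covered around its start with 500 EMPs and 3095 bp with 15000 EMPs. The co-receptor genes Lrp5 and Lrp6 and the receptor gene Kremen1 had no peak in either. Among 12 further secreted or membrane inhibitors, 6 were marked with 500 EMPs and 8 with 15000 EMPs. The 6 were Sost, an Lrp5 and Lrp6 antagonist of bone, Notum, an enzyme that removes the lipid from Wnt ligands, Draxin, Trabd2b, Tpbg and Shisa3, and Apcdd1 and Shisa2 joined them with 15000 EMPs. Shisa proteins act within the cell, where they hold back Frizzled receptors. Notum had 1049 bp covered with 500 EMPs and 5493 bp with 15000 EMPs.

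Genes of proteins that promote Wnt signaling were marked too. Rspo1, Rspo2 and Rspo4, which encode R-spondins, had a peak in both libraries, and Rspo3 and Ndp, the gene of the Frizzled ligand Norrin, with 15000 EMPs alone. All 19 Wnt ligand genes were marked in both libraries, with a median of 1945 bp covered with 500 EMPs and 4494 bp with 15000 EMPs, above the 348.5 and 3290.5 bp of the antagonists. Wnt8a and Wnt8b counted only through peaks near the gene end and had 0 bp covered around the start in both libraries. Of 10 Frizzled genes, 4 and 6 were marked. Of 16 intracellular components, Lef1, a TCF/LEF transcription factor, was marked in both libraries, and Axin2, Tcf7, Tcf7l1 and Tcf7l2 with 15000 EMPs alone. The 10 secreted BMP antagonists, which block ligands of another pathway, had 7 genes marked with 500 EMPs and 9 with 15000 EMPs, and their medians were 294.5 and 4400 bp. No difference between these lists was tested. With 15000 EMPs the 5 marked of 16 intracellular components make 31.2%, beside 16.7% of all protein-coding genes, and the difference between the lists was not tested.

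**Figure D5:**
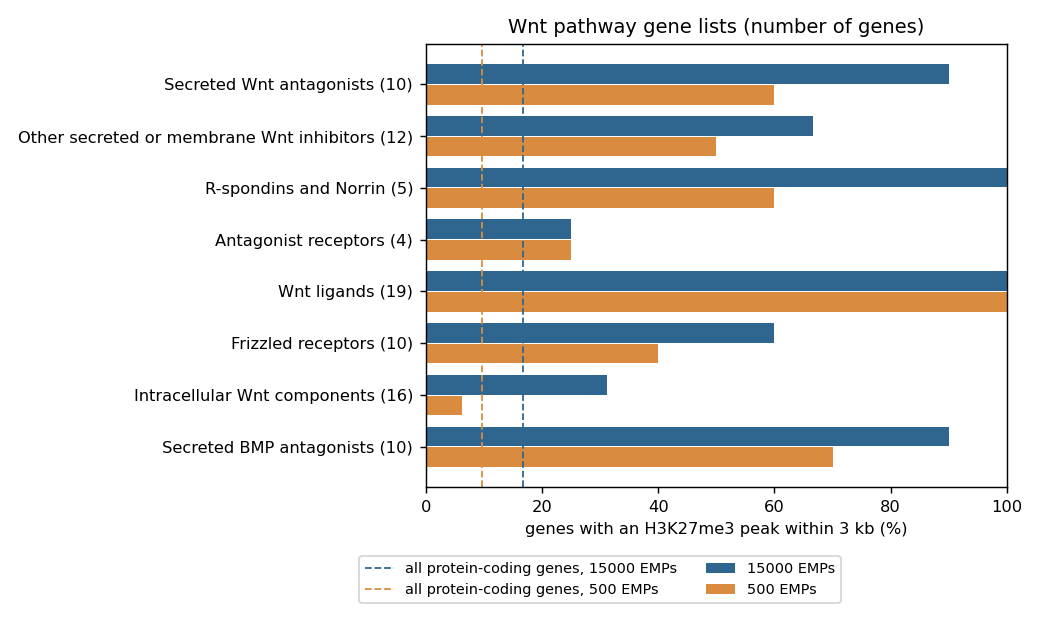
Percent of genes with an H3K27me3 peak within 3 kb in each list of Wnt pathway genes and in the secreted BMP antagonists, with 500 EMPs (orange) and 15000 EMPs (blue), the number of genes in brackets and dashed lines at the shares of all protein-coding genes, 9.74% and 16.7%. The secreted Wnt antagonists reach 60.0% and 90.0%, and the intracellular components 6.25% and 31.2%.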

How the data were processed

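Peak lists and annotated peak tables of 2 H3K27me3 CUT&RUN libraries were used, and the labels gave their groups. Per the labels and methods, the authors aligned reads to GRCm38 (mm10) with Bowtie2 2.2.1, used SAMtools 1.9 and deepTools 3.5.1, called broad peaks against IgG with MACS2 2.1.2 for each library separately, and annotated them with ChIPpeakAnno. The deposited peak lists and tables used here hold positions and, in the annotated tables, genes and distances in bp. Signal tracks, which the authors made with deepTools, were not used here. The lists and tables hold no height or read count, so counting error per peak is unknown, and the lower depth and alignment rate that the submitters state for 500 EMPs were not corrected for. Broad calling joins nearby enriched stretches, which affects peak number and width. Here, peaks were set against GENCODE vM21 genes in Python 3.11.15, with an overlap of at least 1 bp and with 1-based coordinates. The scripts were tested on simulated peaks. The IgG libraries were not analysed here. No statistical test was run, since each group had 1 library. The rule was to name all 10 antagonist genes, the receptors of the Dickkopf proteins, the marked genes among other secreted or membrane inhibitors, R-spondins and intracellular components, and any neighbour within 10 kb. Wnt ligands, Frizzled receptors and BMP antagonists were given by counts, and Wnt8a and Wnt8b were named after their values were seen. The members and lists were chosen with earlier results of these data known. Alternatives covered the distance limit, window, joining of peaks, minimum width, minimum overlap and gene start.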

Additional observations from a re-analysis of the deposited data

How the results depend on the processing

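Of 76 values recomputed under other settings, 66 stayed within their limits and 10 moved. All 40 alternative values for the covered length of single genes stayed. Most of these did not change at all, and several were 0 bp under every setting, so they check little. Of the other 36 values, 26 stayed and 10 moved. The limit for a count was a factor of 1.5, which 2 counts just met: a distance limit of 1 kb left 4 antagonist genes marked with 500 EMPs, and requiring a counterpart in the other list left 6 with 15000 EMPs. Requiring peaks of at least 500 bp left 3 antagonist genes marked with 500 EMPs. A window of 1 kb on each side of the start lowered the median covered length to 0 bp with 500 EMPs and 1488.5 bp with 15000 EMPs. Joining peaks within 1 kb left 8 peaks with 500 EMPs, and joining within 3 kb left 6 with 500 EMPs and 10 with 15000 EMPs. When an overlap had to reach 50% of both peaks, the share of peaks with a counterpart fell to 0% in both lists, and it was 0% for the 15000-EMP list when 50% of its own peaks was required, since all 500-EMP peaks were shorter than that. With the RefSeq gene start, an alternative chosen after seeing the data, 0 starts were covered with 500 EMPs. No paired analysis was possible because each group held 1 library, and leaving out a replicate could not be run for the same reason. A stricter caller threshold could not be applied, since the peak lists used here carry no score, and the lower depth and alignment rate stated for the 500-EMP library limit every statement that a peak was missing from it.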

Other observations

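Covered and bare starts were set beside CpG density over all genes. The genes with a 15000-EMP peak within 3 kb were divided into 4 classes of nearly equal number by CpG density within 1 kb of the start. From the poorest to the richest class, a peak covered the start at 47.1%, 60.7%, 53.9% and 39.8% of the genes. In the richest class, from 5.95 to 13.6 CpG per 100 bp, were Sfrp1, whose start was covered by its peak of 447 bp, and Sfrp2, whose start was bare. Wif1 and Sfrp4, the other antagonists with a bare start, were in the next to poorest class, where the covered share was 60.7%. With 500 EMPs the shares were 17.4%, 17.6%, 13.5% and 7.85%. Dkk1, the only antagonist with a covered start there, was in the poorest class, from 0.200 to 3.30 CpG per 100 bp. These shares are a description over genes of 1 library each and carry no test.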
